A study of Mus musculus with 25 samples.

Results

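The genes described here are 10 transcripts of the neuromuscular junction and of the muscle's response to losing its nerve: Chrna1, Chrnb1, Chrne, Musk, Dok7, Myog, Runx1, Hdac4, Ncam1 and Gadd45a. They were chosen by name, and all 10 were among the 8829 genes of the expression table. Messenger RNA was measured in whole gastrocnemius muscle of male SAMP8 mice, an inbred strain prone to accelerated senescence, with 1 library per mouse. The control group held 11 mice gavaged with the corn oil vehicle. The thymol group held 14 mice gavaged with thymol, a terpenoid of thyme and oregano, at 20 mg per kg on each dosing day, which was not every day of the week. Dosing began at 8 months of age and lasted 3 months in both groups. Young mice, mice of a strain that ages normally and mice with a cut nerve are not among the libraries analysed here, so that no group gives the level of these genes in a fully innervated or a denervated muscle of the same strain. Mice are named by group and by the last number of their label, for example Control 19.

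At the neuromuscular junction, agrin released by the motor axon binds Lrp4 and switches on the receptor kinase MuSK, which with its adaptor Dok7 and the scaffold rapsyn clusters acetylcholine receptors under the nerve terminal. In an innervated fibre these genes are transcribed mainly by the few nuclei under the synapse, because electrical activity represses them elsewhere. When the nerve is lost, Hdac4 accumulates and relieves repression of myogenin, and myogenin then switches on the receptor subunits, Musk and the ubiquitin ligases Trim63 and Fbxo32 along the whole fibre, while Runx1, Ncam1 and Gadd45a also rise. Of the 10 genes, 7 (Chrna1, Musk, Myog, Gadd45a, Runx1, Hdac4 and Ncam1) are textbook examples of this induction. Chrne, the adult receptor subunit, stays largely tied to the synaptic nuclei.

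The promoters of the 3 receptor subunits, of Musk and of Myog are shown because these genes are classical targets of the myogenic factors, which bind E-boxes (CANNTG, a word that reads the same on both strands). RefSeq windows from 250 bases before to 50 bases after the start site (GRCm38.p6) were matched for 9 of the 10 members. Each is written 5′ to 3′ on the strand of its gene, and capitals mark E-boxes and the N-box core CCGGAA, searched on both strands, which is the word bound by the synapse factor GABP. No E-box overlapped an N-box in these 5 windows. They lie at chr2:73580289-73580588 (minus strand) for Chrna1, chr11:69795888-69796187 (minus strand) for Chrnb1, chr11:70619145-70619444 (minus strand) for Chrne, chr4:58285712-58286011 (plus strand) for Musk and chr1:134289754-134290053 (plus strand) for Myog.
Chrna1: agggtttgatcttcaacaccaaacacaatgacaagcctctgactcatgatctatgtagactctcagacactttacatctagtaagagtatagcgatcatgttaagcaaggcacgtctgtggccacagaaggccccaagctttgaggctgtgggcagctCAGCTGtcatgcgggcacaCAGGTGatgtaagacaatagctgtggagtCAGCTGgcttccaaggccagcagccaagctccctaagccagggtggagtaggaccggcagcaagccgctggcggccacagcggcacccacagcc
Chrnb1: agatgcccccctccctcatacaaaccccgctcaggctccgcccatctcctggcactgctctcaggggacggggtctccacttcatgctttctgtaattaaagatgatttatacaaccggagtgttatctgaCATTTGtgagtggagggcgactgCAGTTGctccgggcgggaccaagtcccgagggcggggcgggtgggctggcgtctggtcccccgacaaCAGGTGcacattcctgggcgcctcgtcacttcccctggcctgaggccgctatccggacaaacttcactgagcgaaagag
Chrne: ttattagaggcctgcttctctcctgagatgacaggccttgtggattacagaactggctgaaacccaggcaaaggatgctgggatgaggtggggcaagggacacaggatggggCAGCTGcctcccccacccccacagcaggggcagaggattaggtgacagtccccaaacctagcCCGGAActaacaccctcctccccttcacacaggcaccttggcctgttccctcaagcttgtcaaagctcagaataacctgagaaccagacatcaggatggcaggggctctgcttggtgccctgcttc
Musk: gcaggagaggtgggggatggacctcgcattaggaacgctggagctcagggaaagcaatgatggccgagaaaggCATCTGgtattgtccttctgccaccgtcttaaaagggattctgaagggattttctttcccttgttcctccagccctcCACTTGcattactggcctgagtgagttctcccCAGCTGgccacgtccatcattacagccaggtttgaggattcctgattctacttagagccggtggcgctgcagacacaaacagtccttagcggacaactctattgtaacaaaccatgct
Myog: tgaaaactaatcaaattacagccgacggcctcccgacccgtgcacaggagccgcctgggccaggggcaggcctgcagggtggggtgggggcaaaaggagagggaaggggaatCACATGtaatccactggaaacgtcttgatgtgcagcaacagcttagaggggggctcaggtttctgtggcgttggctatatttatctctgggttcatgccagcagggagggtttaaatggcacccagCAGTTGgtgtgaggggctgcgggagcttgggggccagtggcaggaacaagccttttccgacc

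Chrna1 held 3 E-boxes, at -92, -73 and -44 from the start site, and the first and last of them read CAGCTG. The windows of Chrnb1 and Musk also held 3 E-boxes each, and that of Myog held 2, of which the nearer lay at -12. Chrne had a single E-box, CAGCTG at -138, and an N-box at -76. At least 1 E-box occurred in 72.3% of 32851 RefSeq mouse promoter windows of the same length, at least 3 in 17.6%, the word CAGCTG in 16.3% and the N-box in 14.9%. Most promoters thus hold an E-box, whereas 3 in a window are less common. These matches describe the letters of the windows and no binding was measured.

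QuantSeq reads the 3′ ends of transcripts, and the authors deposited log2 CPM (reads scaled to a common library size) after TMM scaling of the libraries. Whole reads could be recovered for every value of the table (within 0.01 read), and 0 reads correspond to a log2 CPM of -1.90. Reads per library on these genes ranged from 4463818 to 9463418, with a median of 7503259. In the first 3 principal components of all genes, Control 18 lay apart on the first, Thymol 20 on the next and Control 19 on the last, and results that rest on them are given with and without them. All 10 fast-fibre markers, such as Acta1 and Ckm, were in the table and at high levels in each mouse. Because whole muscle was profiled, fewer cells of a type and less RNA per cell cannot be told apart. The strand used in counting is not given in the sources used here, so reads of Chrne, Gadd45a, Runx1, Hdac4 and Ncam1 cannot be told apart from those of the annotated genes that overlap them on the other strand, and Hdac4 also overlaps a predicted gene on its own strand.

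Hdac4, the histone deacetylase that represses activity-dependent genes, was the most abundant member, with a mean of 5.81 log2 CPM, and the transcription factor Runx1 was the least, with 1.67. Between them lay Ncam1 at 4.70, Musk at 4.52, Chrna1 at 4.46, Chrnb1 at 3.82, Chrne at 3.74, Dok7 at 3.68, Gadd45a at 2.78 and Myog at 2.55 log2 CPM. Each read stands for the 3′ end of a molecule, so these means were not divided by transcript length. Hdac4 exceeded Ncam1 in 24 of 25 mice, and Chrna1 exceeded Chrnb1 in all 25. Ncam1, Musk and Chrna1 were not separated from each other, since Ncam1 exceeded Musk in 14 mice by 0.18 ± 0.75 (mean log2 difference ± SD, n = 25) and Musk exceeded Chrna1 in 15 by 0.06 ± 0.52. Chrnb1, Chrne and Dok7 were likewise within 1 SD of each other in turn, as were Gadd45a and Myog. Dok7 exceeded Gadd45a in 22 mice by 0.90 ± 0.77, and Runx1 lay 0.89 ± 1.01 below Myog, in 20 of 25 mice.

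The spread between mice was above that of the median gene for 9 of 10 members. Their SDs over 25 mice had a median of 0.43 log2 units, against 0.28 for all genes. Runx1 had an SD of 0.75, which was larger than that of 98.3% of genes, and Gadd45a had 0.66, larger than that of 97.2%. Counting error alone would give 0.33 for Runx1, whose reads ranged from 3 to 56 per mouse, and 0.22 for Gadd45a, with 12 to 133 reads. Ncam1 had an SD of 0.55 against a counting SD of 0.11, and Chrna1 had 0.46 against 0.12, so that most of their spread lay beyond counting error. Hdac4, at 0.25 against 0.07, was the steadiest.

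Among the receptor subunits, Chrna1, which carries the acetylcholine binding site, lies on chromosome 2 from 73563215 to 73580338 (GRCm38, as are all coordinates below). In control mice it ranged from 4.002 to 5.52 log2 CPM with a median of 4.23, and in thymol mice from 4.02 to 5.67 with a median of 4.35. The groups overlapped almost fully, and the distribution had a long upper tail: Thymol 16 (5.67), Control 19 (5.52), Thymol 30 (5.16), Thymol 6 (5.13) and Thymol 7 (4.86) lay above the other 20 mice. Chrnb1, the β subunit that tethers the receptor to rapsyn (chromosome 11, 69784036 to 69795943), ranged from 3.54 to 4.74 in control mice, with a median of 3.79, and from 2.69 to 4.11 in thymol mice, with a median of 3.85. A single mouse stood out at each end, Control 19 at 4.74 and Thymol 11 at 2.69, and the others lay within a narrow band. Chrne, whose ε subunit replaces the fetal γ subunit at mature synapses (chromosome 11, 70614883 to 70619216), ranged from 3.26 to 4.03 in control mice, with a median of 3.84, and from 2.95 to 4.30 in thymol mice, with a median of 3.80. The 5 highest mice for Chrne were all thymol mice, led by Thymol 20 and Thymol 16, and so were the 3 lowest, of which Thymol 11 was the last. The thymol SD of Chrne was 0.45 and the control SD was 0.24, a difference that was not tested.

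Musk, the kinase that organises the postsynaptic membrane (chromosome 4, 58285960 to 58374303), ranged from 3.69 to 5.29 log2 CPM in control mice, with a median of 4.66, and from 3.96 to 4.96 in thymol mice, with a median of 4.56. Both extremes for Musk were control mice, Control 19 at the top and Control 18 at the bottom. Dok7, the adaptor that MuSK needs for full activity (chromosome 5, 35056766 to 35087839), ranged from 3.32 to 4.31 in control mice, with a median of 3.997, and from 2.81 to 4.20 in thymol mice, with a median of 3.58. For Dok7, 12 of 14 treated mice fell under the median of the controls, and the ranges of the 2 groups still overlapped over most of their length.

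Myog encodes myogenin, the factor through which denervation reaches the receptor genes (chromosome 1, 134289989 to 134292548). It ranged from 1.73 to 3.36 log2 CPM in control mice, with a median of 2.66, and from 1.66 to 3.57 in thymol mice, with a median of 2.67, so that the medians were nearly the same. Hdac4 (chromosome 1, 91928779 to 92195699) ranged from 5.36 to 6.25 in control mice, with a median of 5.72, and from 5.49 to 6.12 in thymol mice, with a median of 5.89. Runx1, a factor that preserves denervated fibres (chromosome 16, 92601466 to 92826149), ranged from 0.84 to 2.45 in control mice, with a median of 2.15, and from -0.27 to 2.81 in thymol mice, with a median of 1.78. Its highest mouse, Thymol 16, and its 3 lowest, Thymol 26, Thymol 34 and Thymol 3, were all in the thymol group, and Thymol 3 held 3 reads. Gadd45a, a stress gene that promotes fibre atrophy (chromosome 6, 67035096 to 67037457), ranged from 1.58 to 4.14 in control mice, with a median of 2.72, and from 1.79 to 3.66 in thymol mice, with a median of 2.98. Ncam1, an adhesion molecule that returns to the extrasynaptic membrane after denervation and is also made by Schwann and satellite cells (chromosome 9, 49502136 to 49798925), ranged from 3.95 to 5.93 in control mice, with a median of 4.42, and from 4.004 to 5.83 in thymol mice, with a median of 4.71. The groups overlapped for each of these 5 genes, and for Runx1 and Myog the thymol range extended past the control range at both ends. The top of the Gadd45a range was again Control 19, while the top of the Ncam1 range was Control 18.

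**Figure D1:**
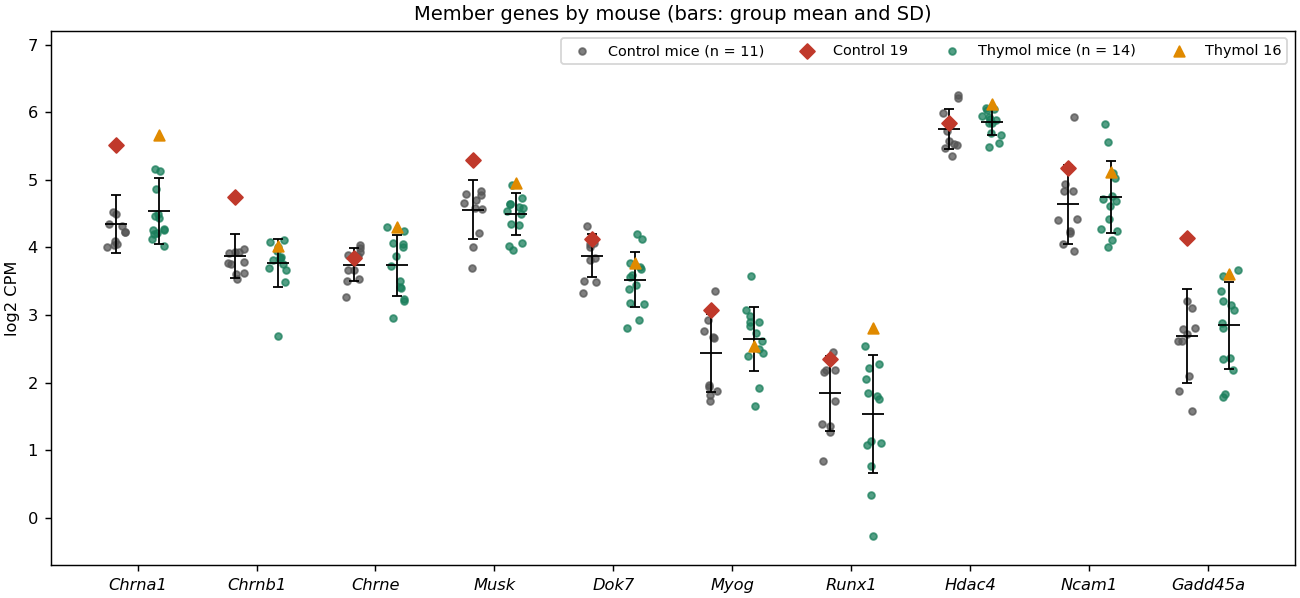
Log2 CPM of the 10 members (y axis) in each mouse, with control mice in grey and thymol mice in green, and black bars at the group mean ± SD (n = 11 control, n = 14 thymol). The groups overlap for every member, and Control 19 (red diamond, 5.52 for Chrna1) and Thymol 16 (orange triangle, 5.67) sit at the top of several distributions.

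Thymol did not separate the groups at these genes. Of the 10 members, 5 had a higher and 5 a lower mean in thymol mice, the median log2 fold change was 0.05, against -0.00 over all genes, and the values ran from -0.36 for Dok7 to 0.21 for Myog. None of the 10 had an adjusted p under 0.05 (limma, two-sided, Benjamini-Hochberg over 8829 genes), as for 0% of all genes, where the lowest adjusted p was 0.741. At an unadjusted p under 0.05, 1 of 10 members passed, beside 3.53% of all genes (312 of 8829).

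The member that passed unadjusted was Dok7, at 3.88 ± 0.32 log2 CPM in control mice (SD, n = 11) and 3.52 ± 0.41 in thymol mice (SD, n = 14). Its log2 fold change was -0.36 (SE 0.14, 95% confidence interval -0.64 to -0.07), with p = 0.0178 and an adjusted p of 0.9999 (limma). Leaving out any single mouse kept the unadjusted p of Dok7 between 0.00574 and 0.0388, and every such adjusted p was at least 0.997. Dok7 also had an r of 0.55 with the summed red cell markers over 25 mice (rho 0.56, permutation p = 0.00422, adjusted p = 0.155 over 110 relations of members and markers), which was 0.42 without Control 14 and Control 19. All 5 red cell markers were lower in thymol mice (median -0.14, none with an unadjusted p under 0.05), beside 4454 of all 8829 genes. The sums of the red cell markers ran from 278.2 to 774 CPM in control and from 256 to 658 CPM in thymol mice, and their part in the Dok7 difference was not tested. Runx1 had the next lowest estimate, at -0.31 (interval -0.89 to 0.28, p = 0.289), with a spread that leaves a rise or a fall within the interval.

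For the other members the intervals bracketed 0. Myog differed by 0.21 (interval -0.20 to 0.62), Chrna1 by 0.19 (-0.15 to 0.53), Gadd45a by 0.16 (-0.34 to 0.66), Ncam1 by 0.11 (-0.30 to 0.52) and Hdac4 by 0.11 (-0.09 to 0.30) on the log2 scale. Chrnb1 differed by -0.10 (-0.36 to 0.17), Musk by -0.07 (-0.35 to 0.22) and Chrne by -0.01 (-0.30 to 0.28), and the sign of Musk turned without Control 19 and that of Chrne without any of 12 single mice, with voom and with array weights. Each of these intervals holds changes in both directions. Chrna1 rested on Control 19 in that its unadjusted p was 0.269 with all mice and 0.0482 without that mouse, at a log2 fold change of 0.31, and its adjusted p stayed at 0.997 or above.

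**Figure D2:**
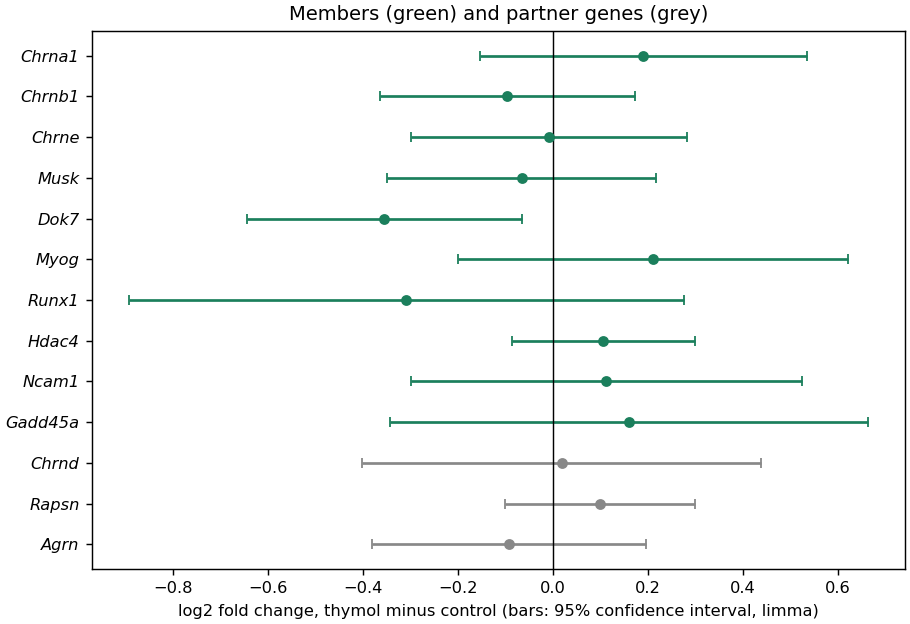
Log2 fold change, thymol minus control (x axis), with 95% confidence intervals from limma for the 10 members (green) and for the partner genes Chrnd, Rapsn and Agrn (grey). The interval of Dok7, from -0.64 to -0.07, lies below 0, and the other 12 cross it.

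The other genes of the synapse were read from the same fit. Of 36 other neuromuscular synapse genes, 24 were in the table, and 10 were higher and 14 lower in thymol mice (median log2 fold change -0.01), with 0 at an adjusted and 1 at an unadjusted p under 0.05 (limma). Chrng and Lrp4 were not in the table. The δ subunit gene Chrnd differed by 0.02 (interval -0.40 to 0.44), the scaffold gene Rapsn by 0.10 (-0.10 to 0.30) and Agrn, which encodes agrin, by -0.09 (-0.38 to 0.20). The gene that passed unadjusted was Macf1, a linker of microtubules to the postsynaptic membrane, at 0.15 (p = 0.045, adjusted p = 0.9999, limma). Other genes of the list, none of which passed, included Gabpa, a subunit of the N-box factor GABP, at 0.15 (p = 0.245), and, on the lower side, the β-catenin gene Ctnnb1 at -0.06 (p = 0.230).

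Of 42 other genes known to respond to denervation, 33 were in the table, and 13 were higher and 20 lower in thymol mice (median -0.03), with 0 at an adjusted p under 0.05 and 0 at an unadjusted p under 0.05 (limma). The smallest p was 0.157, for the stress factor gene Atf4 at -0.09. Myf6, a myogenic factor of mature fibres, differed by -0.14 (p = 0.231), the spermine oxidase gene Smox, which falls with atrophy, by 0.16 (p = 0.223), and the ubiquitin ligase gene Fbxo32 by 0.09 (p = 0.379). All 6 Schwann cell markers in the table were lower in thymol mice (median -0.27, 1 with an unadjusted p under 0.05). Over all 8829 genes, 4454 were lower and 3.53% had an unadjusted p under 0.05 (limma). The summed level of the Schwann markers ranged from 84.8 to 279.9 CPM in control mice and from 77.9 to 193.3 CPM in thymol mice, and 8 further Schwann markers were not in the table. All 7 slow-fibre markers were also lower in thymol mice (median -0.28, none with an unadjusted p under 0.05), and their summed level ranged from 821 to 6841 CPM in control mice and from 62.3 to 8608 CPM in thymol mice. The part of the Schwann and slow-fibre markers in the values of the members was not tested.

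The profile of single mice is given as a description. For each mouse, the number of the 7 denervation-induced members at which it ranked among the 5 highest of 25 was counted, with no test. Control 19 and Thymol 16 each reached 6 of 7, no other mouse reached more than 3, and 18 of 25 mice reached 0 or 1. Over all genes, Control 19 was among the 5 highest for 24.2% and Thymol 16 for 17.9%. The mean deviation over the 7 genes was 1.34 SD in Control 19 and 1.23 SD in Thymol 16, and the next was 0.62 SD in Thymol 20. Both groups thus held 1 such mouse, and the group medians of the mean deviation were -0.28 SD in control and -0.05 SD in thymol mice.

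The 2 mice shared high Chrna1, Chrnb1, Musk, Runx1, Ncam1 and Gadd45a, and differed at the rest. Control 19 was the highest of 25 mice for Chrnb1, Musk and Gadd45a and ranked 3 for Myog and Dok7, but ranked in the middle for Hdac4, at 5.84, and for Chrne, at 3.84. Thymol 16 was the highest for Chrna1 and Runx1, ranked 2 for Chrne and Musk and 3 for Hdac4, but lay in the middle for Myog, at 2.54. Chrne, which is not among the genes induced along the fibre, was among the 5 highest in Thymol 16 and not in Control 19. At the other end, Control 27 had the lowest mean deviation, -0.86 SD, with the lowest depth of the 25 libraries.

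**Figure D3:**
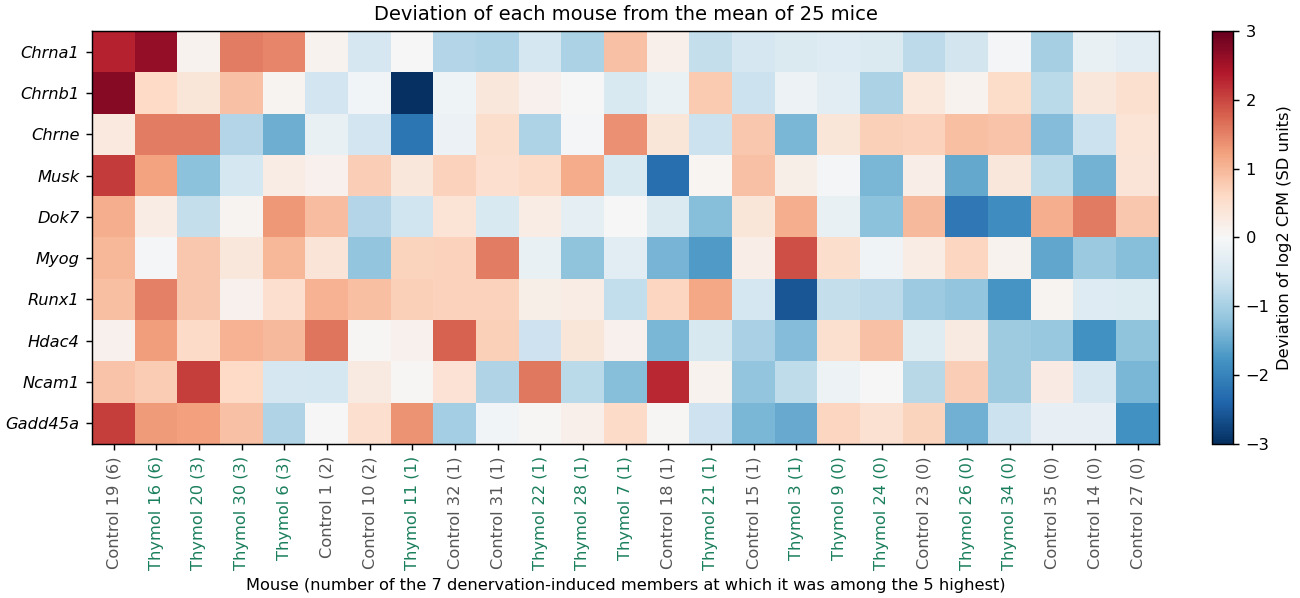
Deviation of each mouse (columns, control labels in grey and thymol labels in green) from the mean of 25 mice, in SD units of log2 CPM, for the 10 members (rows). Mice are ordered by the number of the 7 denervation-induced members at which they were among the 5 highest, given in parentheses, which was 6 for Control 19 and Thymol 16 and at most 3 for the others.

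The 33 other denervation genes, which were not used to rank the mice, were read in the same way. They were not split by direction and include genes that fall, such as Smox, for which a high rank is not the denervated state. Control 19 was among the 5 highest for 17 of them (51.5%), against 24.2% of all genes, and was the highest mouse for 11. Thymol 16 was among the 5 highest for 11 (33.3%), against 17.9% of all genes. Control 15, which had 1 of the 7 members, also reached 13 of the 33 (39.4%, against 17.9% of all genes), Thymol 30 reached 12 (36.4%, against 17.3%), and Thymol 20 and Control 14 reached 11 each (33.3%, against 23.2% and 21.9%). A count as high as that of Thymol 16 was thus seen in 4 mice other than the pair.

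Within this list, several genes ranked high in both mice and were chosen for mention after their values were seen. Sln, which encodes the calcium pump inhibitor sarcolipin, was at 6.12 log2 CPM in Control 19 and 5.98 in Thymol 16, against a median of 3.35 over 25 mice. Cdkn1a, the cell cycle inhibitor p21, was at 6.73 and 6.41, against a median of 4.65. Eda2r, a TNF receptor family member, was at 4.76 and 4.62, against 3.30. These 3 genes had Control 19 at rank 1 and Thymol 16 at rank 2 of 25 mice, and so had the ubiquitin ligase gene Fbxo32, at 9.09 and 8.96 against 8.65. Trim63 was at 8.48 and 8.13, against 7.92, and Ampd3, an AMP deaminase, at 3.92 and 3.64, against 2.53, with the 2 mice at ranks 1 and 3 for both. Cdkn1a and Eda2r are also targets of p53, and Trim63 and Fbxo32 respond to fasting and glucocorticoids as well as to denervation. The δ subunit gene Chrnd was highest in Thymol 16, at 3.44 against a median of 2.19, and Control 19 ranked 6, at 2.58.

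Other genes of the same kind did not follow. Myod1, the myogenic factor that denervation induces, was lowest of all 25 mice in Control 19, at 2.64 against a median of 3.98, and Thymol 16 lay at 3.73. Rapsn was also lowest in Control 19, at 4.12 against a median of 4.57. Smox was lowest there too, at 6.90 against 7.46, but that is the direction that Smox takes in atrophy. Control 19 had the highest summed adipocyte markers of the 25 mice, 2409 CPM against a control median of 506, and ranked 2 for the Schwann and for the red cell markers. Thymol 16 ranked 21 of 25 for adipocyte, 14 for Schwann, 22 for red cell and 19 for leukocyte markers. The part of these markers in the profiles was not tested, and of the 3 lists that were high in Control 19 none was among the 5 highest in Thymol 16.

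The members moved together only weakly over mice. Of 45 pairs of members, 35 had a positive and 10 a negative Pearson r over 25 mice, with a median of 0.15. An r of at least 0.4 was reached by 5 pairs (11.1%), beside 3.53% of all 38971206 pairs of genes in the table. The count was 3 without Thymol 3, 8 without Thymol 11, 3 without Control 19 and Thymol 16, and 1 without Control 18, Control 19 and Thymol 20, so that it depended on single mice. An unadjusted p under 0.05 was reached by 6 pairs by r and 3 by Spearman's rho (permutation tests, 100000 permutations, two-sided), and 0 pairs by either had an adjusted p under 0.05 over the 45, where the lowest was 0.267.

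Chrna1 and Gadd45a had the highest r, 0.50 (rho 0.41, permutation p = 0.0112, adjusted p = 0.267). The pair had an r of 0.63 within control and 0.38 within thymol mice, and 0.22 without Thymol 16 and Control 19, the 2 mice farthest from the Chrna1 median, so that the relation rested on those mice. Chrna1 and Chrnb1, subunits of the same receptor, had an r of 0.39 (rho 0.23, permutation p = 0.071, adjusted p = 0.456), with 0.80 within control mice, 0.20 within thymol mice and 0.05 without the same 2 mice. Chrnb1 and Chrne had 0.35 (rho 0.18, permutation p = 0.0883, adjusted p = 0.456), which fell to 0.03 without Thymol 11 and Control 19. The relations of Chrnb1 with the other 2 subunits over all mice thus rested on these mice.

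Runx1 was in 3 of the 5 pairs. It had an r of 0.46 with Ncam1 (rho 0.48, permutation p = 0.0224, adjusted p = 0.267), of 0.45 with Hdac4 (rho 0.38, permutation p = 0.0225, adjusted p = 0.267) and of 0.45 with Gadd45a (rho 0.39, permutation p = 0.0237, adjusted p = 0.267). Without Thymol 3 and Thymol 34, the 2 mice farthest in Runx1, the first was 0.39 and the next 0.31, and without Control 19 and Control 27, the 2 farthest in Gadd45a, the last was 0.42. The r within control and thymol mice was 0.55 and 0.49 for Ncam1, 0.60 and 0.56 for Hdac4, and 0.36 and 0.58 for Gadd45a. These 3 relations kept their sign within both groups. Myog and Hdac4 had an r of 0.42 (rho 0.45, permutation p = 0.0365, adjusted p = 0.328), 0.36 without the 2 farthest mice, 0.71 within control mice and -0.06 within thymol mice, a difference between groups that was not tested. Myog, the direct activator of the receptor genes, had r of 0.23 with Chrna1, 0.02 with Chrnb1 and 0.23 with Musk.

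**Figure D4:**
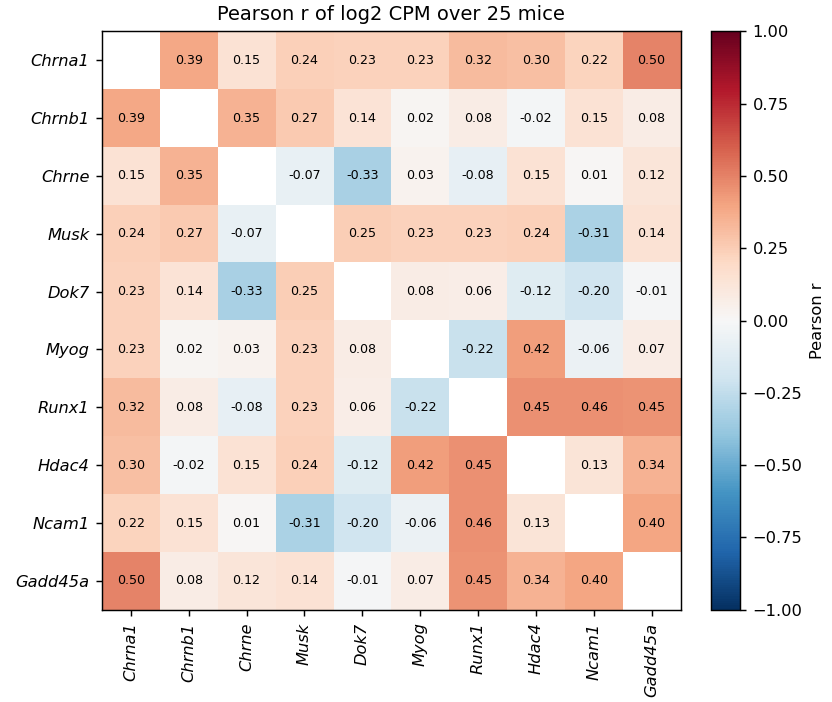
Pearson r of log2 CPM over 25 mice for each pair of the 10 members, from -1 (blue) to 1 (red). The highest values are 0.50 for Chrna1 and Gadd45a and 0.46 for Runx1 and Ncam1, and the lowest is -0.33 for Chrne and Dok7.

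The members were also set against the 33 other denervation genes. Over all 25 mice, 11 of the 33 genes (33.3%) had an r of at least 0.4 with Chrna1, beside 3.92% of all genes, and these included Ampd3 (0.76), Cdkn1a (0.69), Sln (0.64), Eda2r (0.59), Myf6 (0.58) and Chrnd (0.53). At -0.4 or below with Chrna1 were Eno3 (-0.65), Myod1 (-0.49), Pygm (-0.47), Smox (-0.45) and Cd44 (-0.43). The counts here cover positive r only, and the list was not split by the direction of the response. Without Control 19 and Thymol 16 the Chrna1 count was 3 of 33, beside 4.59% of all genes, and Cdkn1a fell to 0.20 and Eda2r to 0.21, whereas Ampd3 kept 0.62. For Chrnb1 the count was 7 of 33 (21.2%, beside 3.81% of all genes), led by Trim63 (0.73), and 2 without the same mice, beside 2.66%. The counts of these 2 receptor genes thus rested in large part on the pair of mice. For Gadd45a it was 5 of 33 (15.2%, beside 3.22%) and 4 without them, beside 3.62%, and Ankrd1, a stretch and stress response gene, had 0.53 and then 0.44. For Runx1 it was 5 of 33 (15.2%, beside 4.47%) and 3 without them, beside 6.16%, with Sln at 0.54 and then 0.44. For Ncam1 it was 5 of 33 (15.2%, beside 5.83%) and 5 without them, beside 6.66%, with the metallothionein gene Mt2 at 0.55 in both. At -0.4 or below were Myod1 (-0.66) and Ppargc1a (-0.49) with Ncam1. With Runx1 these were Myod1 (-0.59), Hdac5 (-0.44) and Eno3 (-0.42), and with Gadd45a Cd44 (-0.69) and Myod1 (-0.52). Without the pair of mice Myod1 was at -0.68 with Ncam1, -0.58 with Runx1 and -0.34 with Gadd45a, and Cd44 at -0.63 with Gadd45a. The other members had lower counts of positive r. Dok7 had 4 of 33 (12.1%, beside 2.73%), Chrne 3 (9.09%, beside 3.94%) and Musk 3 (9.09%, beside 4.67%). Hdac4 had 2 (6.06%, beside 3.21%) and Myog had 1 (3.03%, beside 3.56%). Without the pair of mice these were 3 for Dok7 (beside 3.31% of all genes), 3 for Chrne (beside 5.27%) and 0 for Musk (beside 4.4%). Hdac4 then had 3 (beside 3.53%) and Myog 1 (beside 4.55%). Without the pair of mice, Ncam1 and Gadd45a therefore had more such genes than Chrna1, beside 6.66%, 3.62% and 4.59% of all genes. Of the 24 other synapse genes, 3 (12.5%) had an r of at least 0.4 with Chrna1 and 3 with Dok7, beside 3.92% and 2.73% of all genes. Musk and Hdac4 had 2 each (8.33%, beside 4.67% and 3.21%) and Gadd45a had 1 (4.17%, beside 3.22%). Chrnb1, Chrne, Myog, Runx1 and Ncam1 had 0, beside 3.56% to 5.83%. Without the pair of mice Chrna1 had 1 (beside 4.59%) and Dok7 3 (beside 3.31%). These are correlations over the same 25 libraries and are given as a description.

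The genes most like each member over the 25 mice, by Pearson r after the group means were removed, fell into different kinds and are also given as a description, with no p. For Chrna1 they were Cdkn1a (0.78) and Ampd3 (0.77), which were 0.36 and 0.63 without Control 19 and Thymol 16. For Chrnb1 they were Trim63 (0.73) and Riok3 (0.67), which were 0.26 and 0.43 without its 2 farthest mice, Thymol 11 and Control 19. Gadd45a was nearest to the ubiquitin ligase gene Rnf128 (0.71) and to Mybph, a myosin binding protein gene (0.69), at 0.67 and 0.62 without its 2 farthest mice. Runx1 was nearest to the metalloproteinase gene Mmp9 (0.79) and to the annexin gene Anxa5 (0.77), at 0.64 and 0.72 without its 2 farthest mice. The nearest genes to Ncam1 were Apod, a lipid carrier gene (0.81), and Egfr (0.71), at 0.79 and 0.60 without its 2 farthest mice. Of these 10 genes, Cdkn1a, Ampd3 and Trim63 belonged to the denervation list.

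Among the remaining members, Chrne was nearest to Smpdl3a (0.70) and Xrcc5 (0.69), Musk to Cnot1 (0.77) and Trip12 (0.76), and Dok7 to Plekhm3 (0.73) and Sox13 (0.66). Myog was nearest to Txnl1 (0.74) and to Smyd1, a muscle methyltransferase gene (0.67), and Hdac4 to Rsf1 (0.73) and Selenoi (0.69). None of these 10 genes was a member of the synapse or denervation lists, and their r stayed between 0.61 and 0.80 without the 2 farthest mice of each member.

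**Figure D5:**
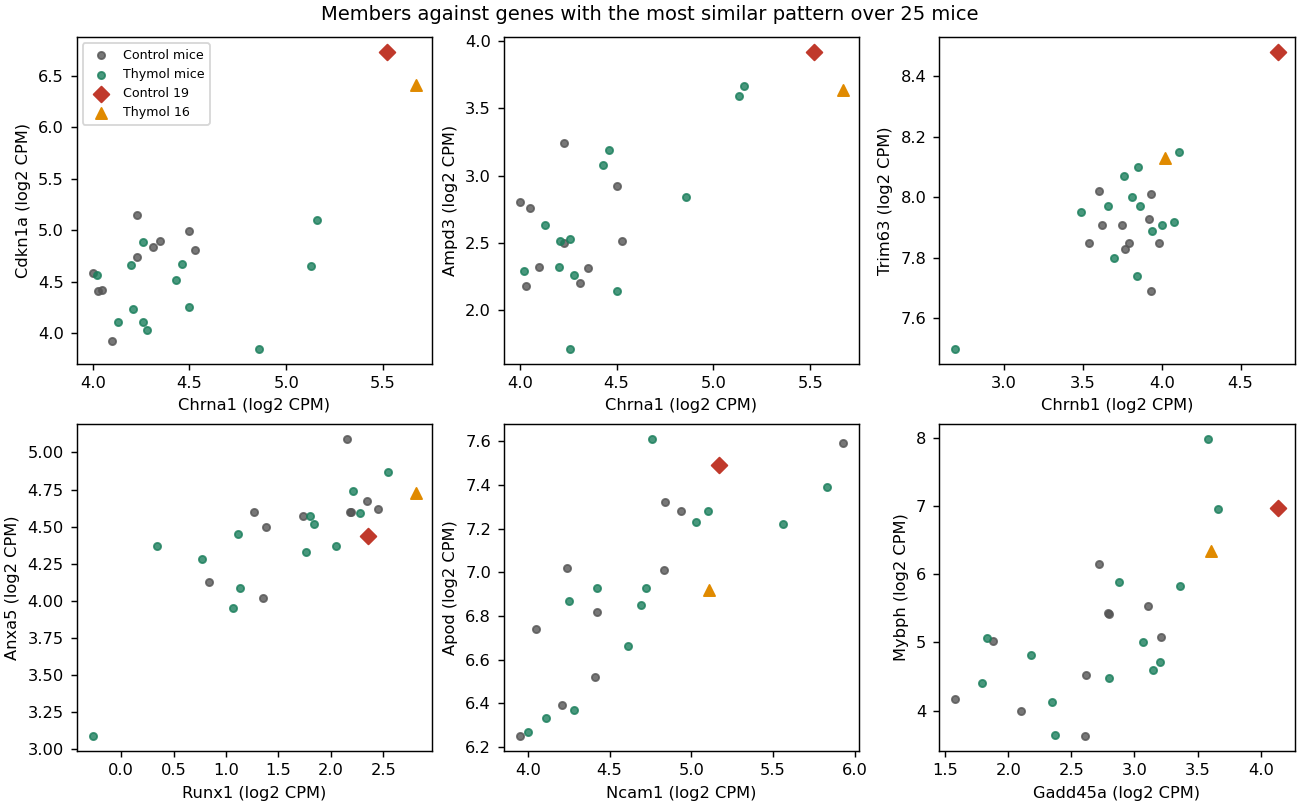
Log2 CPM of members (x axes) against genes of most similar pattern (y axes) in 25 mice, with control mice in grey, thymol mice in green, Control 19 as a red diamond and Thymol 16 as an orange triangle. Chrna1 and Cdkn1a (r = 0.78 with group means removed) owe their slope mainly to those 2 mice, Chrnb1 and Trim63 (0.73) also to the low Thymol 11, and Ncam1 and Apod (0.81) rise together over the whole range.

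Markers of other cells were compared with the members in 110 relations, including depth, and 0 had an adjusted p under 0.05. The highest was Ncam1 with the summed leukocyte markers, at an r of 0.59 (rho 0.53, permutation p = 0.00189, adjusted p = 0.155), which was 0.31 without Control 18 and Thymol 20, the 2 mice that also led Ncam1. Ncam1 had an r of 0.39 with the Schwann markers (rho 0.50, permutation p = 0.0521, adjusted p = 0.316), 0.48 with the fibroblast markers (rho 0.38, permutation p = 0.0165, adjusted p = 0.217) and -0.42 with the satellite cell markers (rho -0.25, permutation p = 0.037, adjusted p = 0.289). The satellite cell list also covers regeneration and includes Myod1 and Myh8, which are on the denervation list as well. The Schwann value was 0.47 without Control 35 and Thymol 21. The fibroblast value was 0.31 without Control 18 and Thymol 21, and the satellite cell value was -0.29 without Control 18 and Thymol 9. Myog had an r of -0.54 with the fibroblast markers (rho -0.44, permutation p = 0.00386, adjusted p = 0.155), which was -0.34 without Control 18 and Thymol 21. Runx1 also had a positive r with the leukocyte markers, 0.47 (rho 0.45, permutation p = 0.0173, adjusted p = 0.217), and 0.45 without Control 18 and Thymol 20. Myog had a negative r with them, -0.51 (rho -0.31, permutation p = 0.00851, adjusted p = 0.217), and -0.58 without the same 2 mice. Chrne had -0.49 with the satellite cell markers (rho -0.51, permutation p = 0.0131, adjusted p = 0.217). Musk had -0.48 with the fibroblast markers (rho -0.38, permutation p = 0.0158, adjusted p = 0.217). Of the leukocyte list, 10 of 16 genes were in the table, and their sum ranged from 117 to 552 CPM in control and from 127 to 394 CPM in thymol mice. For Gadd45a the r with depth was 0.41 (rho 0.17, permutation p = 0.0388, adjusted p = 0.289), and 0.03 without the 2 mice farthest in depth. The part of these cells in the levels of the members was not tested.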

How the data were processed

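Libraries from gastrocnemius RNA of 25 mice were made with the QuantSeq 3′ kit. The authors mapped the reads to GRCm38, counted them per gene (STAR 2.5.3 and HTSeq 0.6.1, per the submitters' processing notes), kept genes with at least 30 reads in at least 6 samples and deposited TMM-scaled log2 CPM. These log2 values were the input here. The members and gene lists were chosen with earlier results of these data known.

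Groups were compared on the deposited log2 values with limma 3.58.1 (trend, two-sided, R 4.3.3) and Benjamini-Hochberg adjustment over 8829 genes. The table was named as log2 normalized values, so no count model was the main test, and voom on recovered reads was an alternative. The fit and the correlations were also tested on simulated data. Depth sets a counting SD of 0.13 log2 units at the median gene, and intervals based on reads cover counting error only. Each mouse is a separate animal.

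Correlations used 100000 permutations of mice (Python 3.11.15, numpy 2.4.6). Text names all 10 members, the partners Chrnd, Chrng, Rapsn, Lrp4 and Agrn, the 2 genes lowest in p among the higher and among the lower genes of each list, and the 2 most like each member. List genes named in the profiles of Control 19 and Thymol 16, and with r to a member, were chosen after their values were seen. Alternatives were other scalings, pseudocounts, filters, weights, covariates and leaving out mice. Marker lists were summed as CPM. A gene that this rule names in the synapse list is not reported here.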

Additional observations from a re-analysis of the deposited data

How the results depend on the processing

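Under every alternative run, 0 genes had an adjusted p under 0.05 (limma), and the genes with an unadjusted p under 0.05 numbered 233 to 346 (287 to 348 without single mice, 312 with all). First numbers of the labels were shared by 9 control and thymol pairs, whose mean correlation of deviations was -0.00222 (range -0.179 to 0.104), so they were not taken as pairs. With a replicate block on them, 0 members passed unadjusted, as against 1, and Chrnd was at -0.0328, Ctnnb1 at 0.00315, Cdkn1a at 0.0544 and Trim63 at 0.039. Members passing unadjusted numbered 1 to 2 without single mice (2 without Control 19) and 2 without Control 18, Control 19 and Thymol 20, where Trim63 was at 0.0582. Without Control 19 and Thymol 16, Chrnd was at -0.036 and Trim63 at 0.0377. Both of these sets of mice were chosen after seeing the data. Array weights gave 0.00238 for Chrne and 0.0254 for Trim63, voom gave 0.0244 for Chrne, and median centring gave 0.00108 for Trim63. Without single mice the log2 fold change ranged from -0.058 to 0.0508 for Chrne, -0.152 to 0.00731 for Musk, -0.0885 to 0.105 for Chrnd, -0.024 to 0.169 for Ampd3 and -0.0269 to 0.0524 for Trim63. Pairs of members at an r of at least 0.4 numbered 5 over all mice, 11 in control mice, 3 by Spearman's rho, 3 without Control 19 and Thymol 16, 1 without Control 18, Control 19 and Thymol 20, and 3 (without Thymol 3) to 8 (without Thymol 11) without single mice. The share of all gene pairs at that r (3.53%) was computed over all 25 mice only. With the fewer control mice a given r is reached more easily, so their count cannot be set against that share or against the count over all mice. Myog and Hdac4 had an r of -0.0575 in thymol mice. The causes were not tested. Gadd45a, Myog and Runx1 have no value in the filter that kept 75% of genes. Low depth limits Runx1 most, at a median of 23 reads.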
